A study of Rattus norvegicus with 10 samples.

Results

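Hedgehog pathway genes were followed in a salivary gland, the submandibular, of 1 hypertensive and 1 normotensive rat strain. The list holds 10 genes, and 9 of them (Shh, Ihh, Dhh, Ptch1, Smo, Sufu, Gli1, Gli2 and Gli3) had a probe whose RefSeq accession led to their symbol, out of 15168 genes named on the array. They were read by 12 probes, since Ihh, Dhh and Gli2 had 2 probes each. Hhip, which encodes a membrane protein that binds Hedgehog ligands and holds them back, had no named probe among those used here. The group was chosen by its measured values in this same comparison, namely the low Shh signal in the hypertensive strain, and the other genes joined it as parts of the pathway. The differences of all 9 genes between the strains are therefore given as a description, and no test of them is read as support.

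The spontaneously hypertensive rat (SHR) is an inbred strain whose blood pressure rises with age, and the Wistar-Kyoto rat (WKY) is the related inbred strain kept as its normotensive control. Both strains carry many other inherited differences, so a difference between them is one of strain and not of blood pressure alone. All rats were males of 14 weeks, untreated as far as the labels say, with 5 SHR and 5 WKY rats matched for age and weight. Each rat gave 1 one-colour Agilent array of whole-gland RNA, named here by strain and the numbers in its title, such as SHR 2-1.

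Hedgehog ligands are secreted proteins that carry lipid and act on neighbouring cells. Without ligand, the receptor Ptch1 keeps the membrane protein Smo inactive, while Sufu holds the Gli transcription factors back and Gli3 is processed to a repressor. Bound ligand lifts this block at the primary cilium, and Gli1 and Ptch1 are themselves induced by Gli activity, so that their mRNAs serve as a common readout of the pathway. Sonic hedgehog from the epithelium is known for its part in the branching of the embryonic salivary gland.

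Between 94.8% and 97.7% of an array's 42877 spots stood well above their background, with 0 saturated. The intensities at the 75th percentile ran from 333 (SHR 3-3) to 648. By the scan times in the file headers, SHR 2-3, 3-1, 3-3 and 3-4 shared 1 scan (slide 1), SHR 2-1 shared another with WKY 1-5, 4-1 and 4-2 (slide 2), and WKY 1-2 and 1-3 shared the last (slide 3). The headers give scan times only, and that arrays of 1 scan time lay on 1 slide is assumed. Only slide 2 held both strains, so slide and strain can be separated there alone, with 1 SHR array. Array SHR 3-3 stood apart in duct genes. The summed intensity of 8 striated and excretory duct markers, relative to the array's 75th percentile, was 4.07 in SHR 3-3 against 15.1 to 21.0 in the other SHR arrays and 14.5 to 18.1 in WKY. The tissue label matched its markers: Aqp5 and Slc12a2 of acinar cells and Klk1 and Egf of granular ducts were well above background on all 10 arrays.

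Shh, which encodes Sonic hedgehog, was lower in SHR than in WKY. Its processed intensity was 77.2, 85.9, 96.5, 45.1 and 67.8 in SHR 2-1, 2-3, 3-1, 3-3 and 3-4, and 253, 198, 402, 249.7 and 368 in WKY 1-2, 1-3, 1-5, 4-1 and 4-2. Each SHR array thus read below each WKY array, and the probe was well above background on all 10. After each array was scaled to its 75th percentile, the log2 level was −2.78 ± 0.11 (SD, n = 5) in SHR and −0.92 ± 0.28 in WKY. That is a log2 difference of −1.85 ± 0.13 (SE), or a 3.61-fold lower level in SHR. It rests on a single probe, whose match to the sequence of each strain was not checked. The Shh difference ranked 24 among the falls of all 14711 genes tested. In whole-gland RNA, fewer cells that express a gene and less of its RNA per cell cannot be told apart.

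The Shh difference was also taken within the 1 scan that held both strains, which has a single SHR array. On slide 2, SHR 2-1 stood at −2.64 on the scaled log2 scale and the mean of the 3 WKY arrays at −0.83, a difference of −1.81. Leaving out SHR 3-3 gave −1.83, and leaving out any 1 array gave −1.93 to −1.77. In SHR 3-3, where duct markers were low, the scaled log2 level of Shh (−2.88) lay within those of the other SHR arrays (−2.90 to −2.64). In the authors' deposited values, which are on a log2 scale, Shh was at most 6.42 in SHR and at least 7.78 in WKY. The difference was −1.80. With normexp background correction and quantile normalisation together the difference was −1.27, while quantile normalisation alone gave −1.81.

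Ihh, which encodes Indian hedgehog, the ligand best known from growing cartilage, was also lower in SHR with both of its probes. The brighter probe read 97.1, 136, 118, 48.4 and 100.5 in SHR 2-1, 2-3, 3-1, 3-3 and 3-4, and 153, 117, 136, 158 and 163 in the WKY arrays in the order given for Shh. On the scaled log2 scale 4 of 5 SHR arrays lay below all WKY arrays and the remaining one, SHR 3-4 at −2.13, lay just above the lowest WKY array (−2.15). The log2 difference was −0.49 ± 0.13 (SE, n = 5 per strain), or 1.40-fold lower.

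The dimmer Ihh probe gave a clearer separation. It read 49.0, 57.2, 55.9, 42.5 and 48.5 in the SHR arrays and 95.2, 79.4, 112, 98.2 and 84.8 in the WKY arrays. The strains did not overlap, and the log2 difference was −0.77 ± 0.12 (SE, n = 5 per strain), or 1.70-fold lower in SHR. On slide 2 alone the Ihh differences were −0.35 (brighter probe) and −0.69 (dimmer probe). Leaving out any 1 array gave −0.55 to −0.39 and −0.85 to −0.71.

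Dhh encodes Desert hedgehog, the ligand of testis and peripheral nerve sheath, and 1 of its 2 probes read near background. The brighter probe read 3852, 3670, 7422, 2194 and 3112 in SHR and 8974, 6518, 7021, 5508 and 5188 in WKY. On the scaled log2 scale 4 SHR arrays lay below all WKY arrays, while SHR 3-1 (3.52) fell among them. The log2 difference was −0.68 ± 0.22 (SE, n = 5 per strain), and −0.30 on slide 2 alone. The dimmer probe was well above background on 4 SHR and 2 WKY arrays, with readings of 17.5 to 25.1 and 13.6 to 27.5, and its log2 difference was 0.25 ± 0.19. Both Dhh probes cite the same RefSeq transcript, but where in it each probe lies was not checked. Why 1 probe read near background and the other did not was not tested. The lower Dhh value in SHR thus rests on the brighter probe alone.

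Markers of nerve sheath and of other cells are given beside the ligands, whose cell of origin was not measured. Of 6 nerve and Schwann cell markers 0 passed the threshold used for all genes (a limma adjusted p below 0.05), with a median log2 difference of −0.14 (Sox10 at −0.45), and their summed relative intensity was 14.0 to 30.8 in SHR and 25.8 to 33.3 in WKY. Of 8 striated and excretory duct markers 0 passed (median −0.28, Scnn1g at −0.60 and Krt19 at 0.35), and of 7 basal and myoepithelial markers 0 passed (median 0.08, Krt5 at −0.16 and Myh11 at 0.33). Fibroblast markers had a median of −0.58, with 1 of 6 lower past the threshold, Col1a1 (−0.79), and Pdgfra at −0.31. Their summed relative intensity was 12.8 to 14.1 in SHR arrays other than SHR 3-3, 5.15 in SHR 3-3 and 13.7 to 20.9 in WKY. Macrophage markers had 2 of 5 lower, Cd68 (−0.97) and Aif1 (−0.81), with Csf1r at −0.22, and summed to 4.16 to 7.41 in SHR and 8.19 to 10.9 in WKY. The part of these cell types in the ligand differences was not tested.

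**Figure D1:**
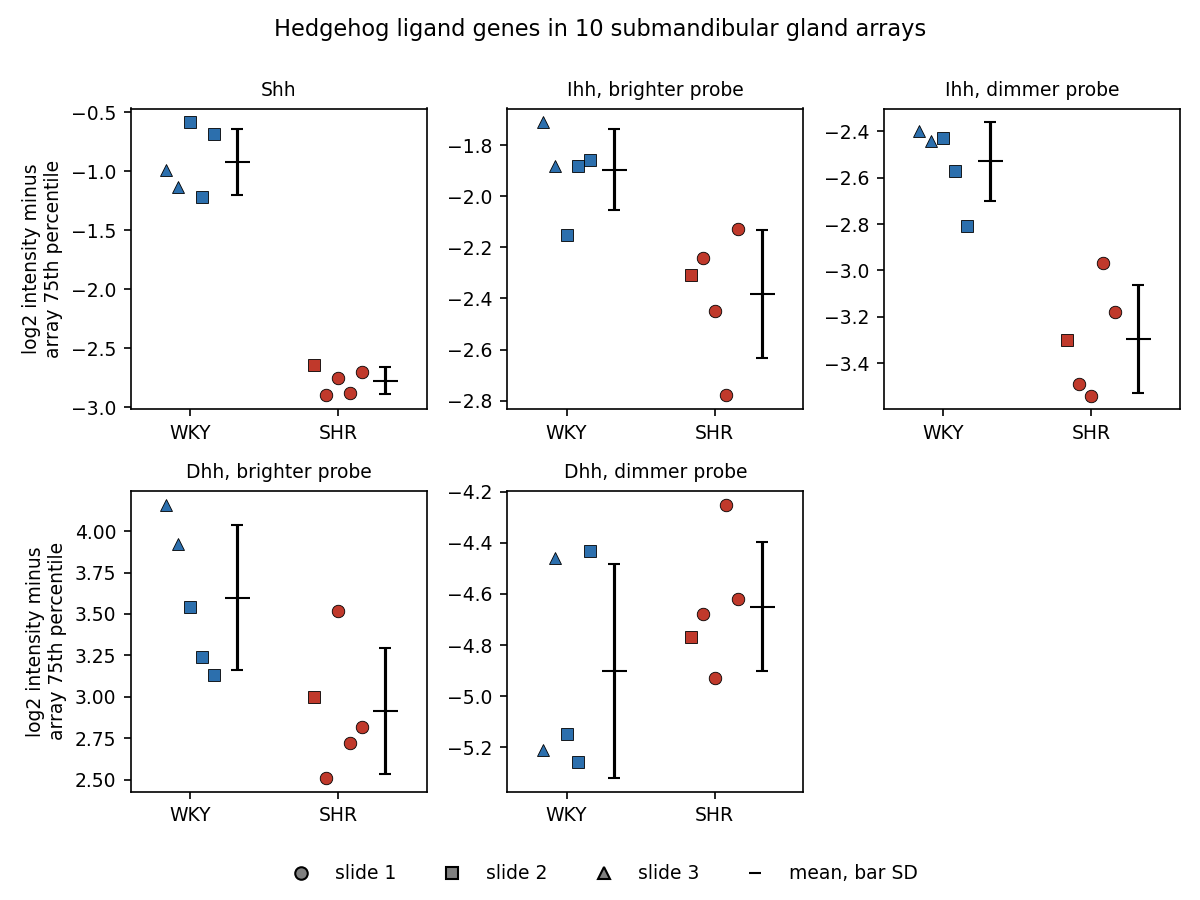
Scaled log2 intensity (vertical axis, log2 intensity minus the array's 75th percentile) of Shh, Ihh and Dhh in each of 5 WKY (blue) and 5 SHR (red) arrays, with the symbol giving the slide and the line and bar the mean and SD. The SHR points of Shh and of the dimmer Ihh probe lie below all WKY points, while the strains overlap in both Dhh probes.

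Ptch1 encodes the ligand-binding receptor and is induced by Gli factors. Its processed intensity was 182, 200.3, 169, 128 and 143 in SHR and 197, 159.7, 197, 215 and 201 in WKY. After scaling, 3 of 5 SHR arrays lay below all WKY arrays, while the others lay among them. The log2 difference was −0.13 ± 0.11 (SE, n = 5 per strain). On slide 2 alone it was 0.14, with the opposite sign.

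The window around the annotated start of Ptch1 in RefSeq (GRCr8, chr17:1555321-1555620, plus strand) is shown because it was the one window of this group with the Gli consensus GACCACCCA. The capitals mark the match, which lies on the minus strand, so the printed strand reads TGGGTGGTC, and its first base is 172 bases upstream of the start.
Ptch1: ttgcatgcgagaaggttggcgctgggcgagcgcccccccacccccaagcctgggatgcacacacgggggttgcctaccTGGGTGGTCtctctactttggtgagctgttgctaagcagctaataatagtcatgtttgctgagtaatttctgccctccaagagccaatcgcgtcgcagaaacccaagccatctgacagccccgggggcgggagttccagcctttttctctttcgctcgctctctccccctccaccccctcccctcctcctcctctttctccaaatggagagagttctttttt
Such windows were at hand for 7 of the 10 genes (Ptch1, Smo, Sufu, Dhh, Gli2, Gli3 and Hhip). Searched on both strands, 129 of 33469 windows of 300 bases (0.385%) held the 9 letters exactly and 7.33% held them with up to 1 mismatch. The other 6 windows held no match even with 1 mismatch, which says only that these letters are not in these windows. No binding of a Gli factor was measured here.

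Gli1, the Gli factor whose own mRNA follows pathway activity, read 65.9, 99.8, 82.4, 60.5 and 64.1 in SHR and 92.8, 58.3, 98.3, 97.7 and 84.3 in WKY. The strains overlapped throughout, with a scaled log2 level of −2.75 ± 0.20 (SD, n = 5) in SHR and −2.67 ± 0.18 in WKY and a difference of −0.09 ± 0.12 (SE). On slide 2 it was −0.20. The differences of both readout genes, Gli1 and Ptch1, were smaller than the SD among single SHR arrays (0.20 and 0.23). That SD is not the uncertainty of a difference between means, which the SE gives. Values from 5 arrays per strain cannot show that either gene was unchanged.

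Smo, the membrane protein that carries the signal past Ptch1, was slightly higher in SHR. It read 88.8, 113, 123, 64.1 and 73.0 in SHR and 79.1, 60.5, 93.9, 86.2 and 105 in WKY. After scaling, 3 of 5 SHR arrays lay above all WKY arrays, and the log2 difference was 0.22 ± 0.09 (SE, n = 5 per strain), with 0.21 on slide 2. Sufu, the inhibitor that binds Gli proteins, read 195, 214, 193, 157 and 168 in SHR and 188, 157, 234, 209 and 226 in WKY. Its scaled log2 level was −1.42 in both strains, with an SD of 0.25 in SHR and 0.05 in WKY. The log2 difference was −0.0020 ± 0.12 (SE), and its sign turned with scaling to the array median (0.03) and in the authors' values (0.04).

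Gli3, the family's main repressor, read 63.8 to 97.1 in SHR and 76.3 to 115 in WKY, and its log2 difference was −0.05 ± 0.15 (SE, n = 5 per strain). Its sign depended on the processing: it was −0.02 with scaling to the array median but 0.0041 with quantile normalisation, 0.05 with normexp and quantile normalisation together, and 0.0049 in the authors' values. Gli2, the family's main activator, had 1 array that decided its value. The brighter probe read 239 in SHR 2-1 and 54.4 to 79.2 in the other SHR arrays, against 63.5 to 98.0 in WKY. Its log2 difference was 0.20 ± 0.31 (SE, n = 5 per strain) with all arrays and −0.16 without SHR 2-1. The value on slide 2 alone, 1.67, rests on SHR 2-1. The dimmer Gli2 probe did not show SHR 2-1 apart: it read 27.5 there and 12.8 to 49.3 in the other SHR arrays, with a log2 difference of 0.47 ± 0.25.

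**Figure D2:**
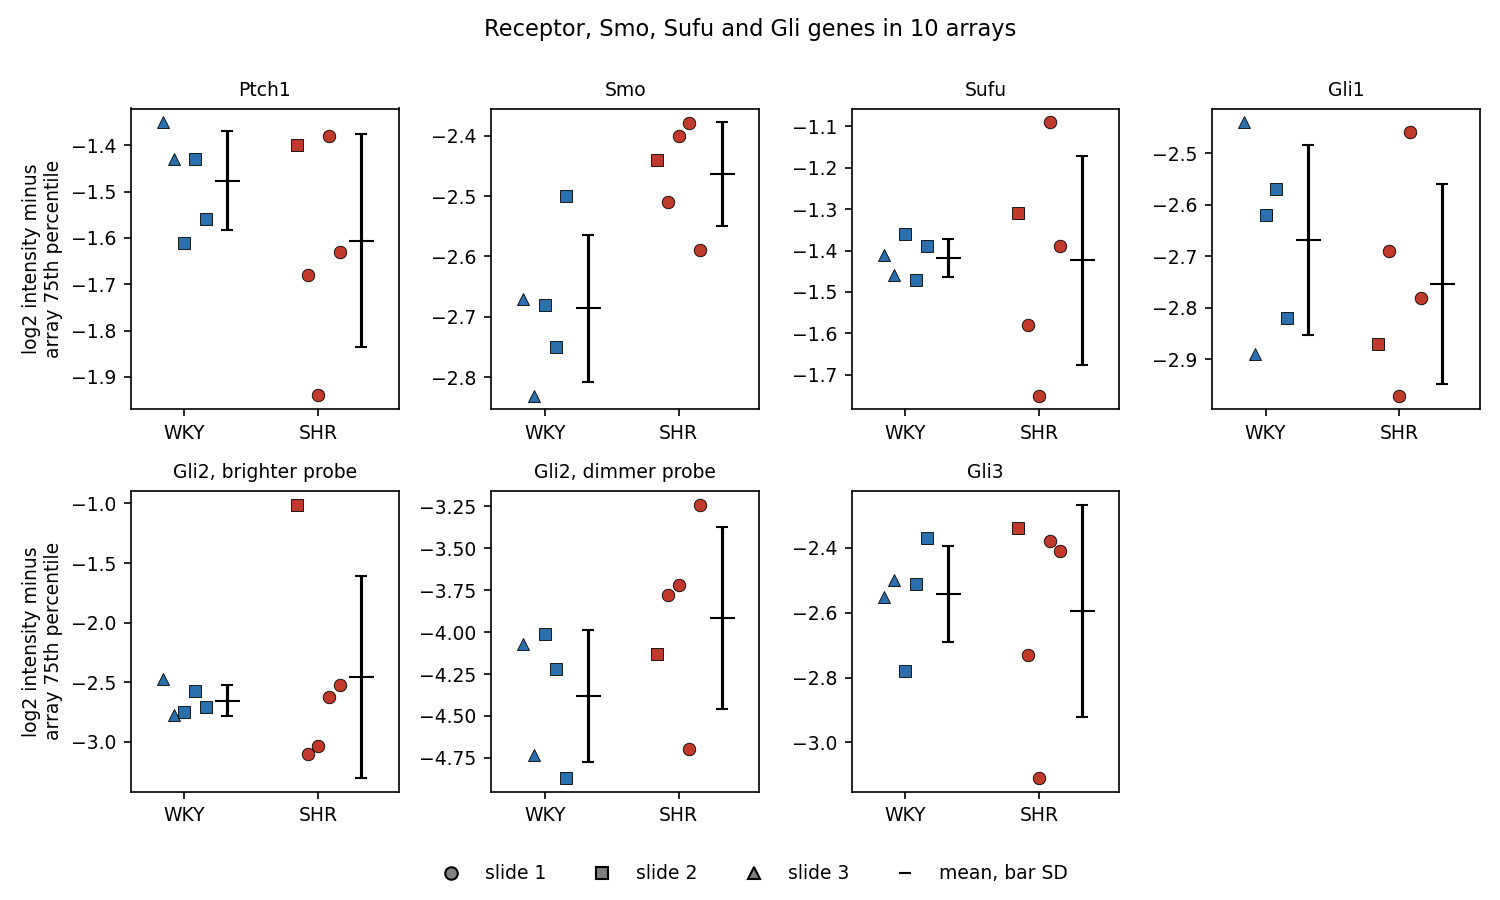
Scaled log2 intensity of Ptch1, Smo, Sufu, Gli1, Gli2 and Gli3 in 5 WKY (blue) and 5 SHR (red) arrays, drawn as for the ligands, with the mean and SD. The strains overlap in all 7 panels, and SHR 2-1 lies at −1.01 in the brighter Gli2 probe, apart from the other arrays.

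Set side by side, the 12 probes had log2 differences from −1.85 (Shh) to 0.47 (dimmer Gli2 probe), 8 below and 4 above 0. Over the 9 genes, each by its brightest probe, the median was −0.09, against −0.02 over all 14711 genes tested. In the fit across all genes 2 of the 9 were called lower, Shh and Ihh, and 0 higher. Ihh lay at the threshold, with a limma adjusted p of 0.0497, and its call was lost in 15 of 23 other settings. Over all genes 4.36% were called, 2.85% lower and 1.51% higher, and nothing is read from the count of 2, since the group was picked on this comparison. By its brightest probe 1 of the 9 genes, Shh, had strains that did not overlap, against 7.25% of all genes.

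**Figure D3:**
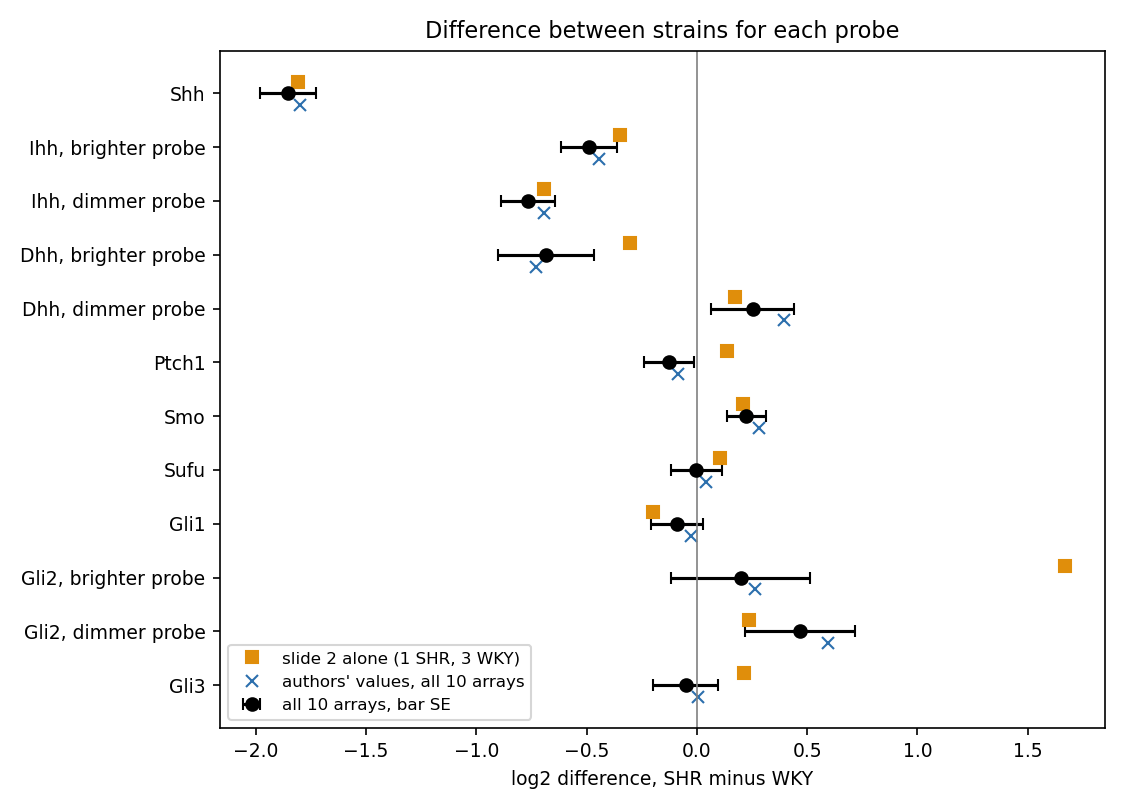
Log2 difference (SHR minus WKY, horizontal axis) of each of the 12 probes with all 10 arrays (black, bar SE), on slide 2 alone (orange, 1 SHR and 3 WKY arrays) and in the authors' values (blue crosses). Shh lies between −1.85 and −1.80 in all 3, and Gli2 differs most between them, at 0.20 and 1.67.

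The other genes of the pathway were listed in 5 groups, 69 in all. Of these 48 had a named probe and 47 were tested, and 1 was higher, 0 were lower and 46 did not pass (limma, Benjamini-Hochberg over all genes), beside 4.36% called over all genes. Of the 47, 13 had an unadjusted p below 0.05, as did 2990 of all 14711. Their median log2 difference was −0.01.

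The gene that rose was Prkar1a, which encodes a regulatory subunit of protein kinase A, the kinase that marks Gli proteins for processing. Its scaled log2 level was 1.74, 1.79, 1.47, 1.61 and 1.45 in SHR and 1.17, 1.16, 1.29, 1.16 and 1.36 in WKY, so the strains did not overlap. The log2 difference was 0.38 ± 0.09 (SE, n = 5 per strain), with a limma adjusted p of 0.0363. This call was lost in 8 of 23 other settings (adjusted p from 0.00593 to 0.795 over all of them), including without SHR 2-1, SHR 2-3, WKY 1-2, WKY 1-3, WKY 1-5 or WKY 4-1. On slide 2 alone the value was 0.47 and did not pass. Prkar1a belongs to the 19 tested genes that carry the signal between Smo and Gli, and the other 18 did not pass. Their log2 differences reached from −0.48 for Grk2, a kinase that phosphorylates Smo, to 0.71 for Evc2, a ciliary protein that binds Smo, and both genes were named after their values were seen.

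In the groups where no gene passed, the members with the widest differences were these. Of 3 tested genes for release of the ligand, Scube1, a secreted protein that helps in it, had a log2 difference of −0.20. Disp2 was at 0.07, and Hhat, the list's gene for lipid attachment, had no named probe. Of 4 further receptors, Lrp2, an endocytic receptor, was at −0.22 and Cdon, a co-receptor, at −0.17. Of 5 tested genes known to respond to Gli factors, Snai1 was at −0.58 and Bcl2, an inhibitor of cell death, at 0.33, and the group's median was 0.00. Among 16 genes of the primary cilium, Bbs4 was at 0.42 and Ofd1 at 0.37, and the median was 0.07. Ofd1 and Prkar1a were the 2 of the 47 whose strains did not overlap, beside 7.25% of all genes.

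**Figure D4:**
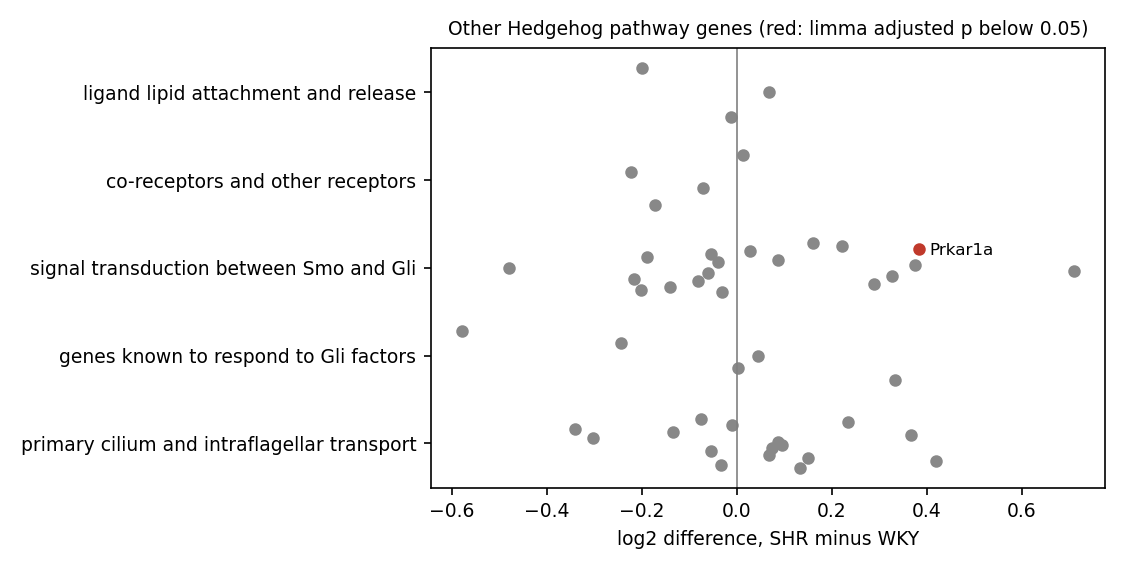
Log2 difference (SHR minus WKY, horizontal axis) of each of 47 other pathway genes, 1 point per gene, in 5 groups. Prkar1a (red) is the 1 gene past an adjusted p of 0.05, at 0.38, and the points of each group lie on both sides of 0.

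The genes whose pattern was most like that of Shh were found by Pearson's r over the 10 arrays, among the named genes tested. The 5 highest were Ocm (0.987), Serhl2 (0.981), Or4k44 (0.979), Pcyox1l (0.979) and Ptprj (0.976). The arrays fall into 2 strains, so this r mostly follows the strain difference. Ocm, the calcium-binding protein oncomodulin, had a log2 difference of −2.08 ± 0.17 (SE, n = 5 per strain), Ptprj, a receptor-type tyrosine phosphatase, −2.04 ± 0.12, and Serhl2 −0.98 ± 0.09. Pcyox1l had −4.76 ± 0.09, and Or4k44, an olfactory receptor gene, was not well above background on any SHR array. With each strain's mean taken off, the highest were Mrm3 (0.898), Coq4 (0.866), Tectb (0.847), Neu1 (0.832) and Lgals5 (0.821), where r rests on the small spread within strains. None of the 10 was a member of the pathway lists. Among the Hedgehog genes themselves, r with Shh over the 10 arrays was 0.761 for Ihh, 0.661 for Dhh, −0.68 for Smo, 0.30 for Ptch1 and 0.20 for Gli1. With the strain means taken off it was −0.13, −0.05, 0.47, −0.31 and −0.25 in the same order. For Gli2, Gli3 and Sufu it lay between −0.14 and 0.10 over the 10 arrays.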

How the data were processed

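Total RNA of 10 submandibular glands was hybridised to 1-colour Agilent arrays. Per the file headers, the authors read them with Agilent Feature Extraction 11.0.1.1, whose processed intensity is background-subtracted and linear. For 30423 probes the authors' deposited value table gives log2 values with 1 median (7.19) for every array; the sources used here do not say how it was made. The arrays' number limits precision.

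Processed intensities were scaled by each array's 75th percentile as log2, outlier spots set to missing and spots of a probe averaged. Probes well above background on at least 5 arrays were kept (29266 of 30367). Symbols came from RefSeq accessions (GRCr8 gene table): 18005 probes had 1 symbol, 12362 none and 0 several. The brightest kept probe stood for a gene. SHR was compared with WKY by limma 3.58.1 in R 4.3.3, without covariates, two-sided, with Benjamini-Hochberg adjustment over 14711 genes at a threshold of 0.05. The fit was tested on simulated data. A fit over all kept probes gave the SE of single probes. Normexp (offset 50) used median signals and local background and was followed by quantile normalisation. Replicates are rats, as the labels describe. Named were all pathway members, every other listed gene past the threshold (or the 2 with the widest difference where none was), the 5 genes most like Shh by each measure, and cell markers with the extremes of their list; Aif1 and the gland markers Aqp5, Slc12a2 and Egf were chosen after their values were seen. Some single markers are not reported here. The members and lists were chosen with earlier results of these data known. Alternatives covered background, scaling, the authors' values, filters, outlier spots, probe choice, slide, weights, variance model and leaving out each array.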

Additional observations from a re-analysis of the deposited data

Results flagged for a closer look

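The brighter Gli2 probe in array SHR 2-1 lay far from the other SHR arrays. Its scaled log2 level was −1.01 there, against −2.52 in the nearest and −3.10 in the farthest of the other 4, so that the gap made up 0.721 of the range of the 5 arrays, where 0.71 is the limit. It was the 1 such case among 26 sets of 5 arrays looked at (12 member probes and Prkar1a in both strains), and chance gives about 1 in 20. The dimmer Gli2 probe did not set that array apart.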

How the results depend on the processing

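Shh was below 0 in all 23 other settings, from −1.93 to −1.27; normexp background correction with quantile normalisation gave −1.27. Ihh, Dhh and Gli1 stayed below 0 and Smo above 0 in all 23. Dhh moved to −0.22 with the mean of its probes. Its dimmer probe alone was above 0 under each scaling (0.10 to 0.39). Gli3 was below 0 in 17, Ptch1 in 21, Sufu in 12 and Gli2 in 2 of 23.

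Among all genes, 222 were higher and 419 lower. The higher count was 356 with quantile normalisation, 336 with scaling to the median and 423 with the authors' values, and the share of lower genes fell from 65.4% to 54.5%, 53.5% and 50.6%, and to 55.3% with normexp and quantile normalisation together. Taking slides as fixed blocks left 12 higher and 32 lower, and slide 2 alone 14 and 38. Under slides as a random effect, whose estimated correlation was negative (−0.19), they were 1350 and 2101. Leaving out 1 array gave 125 to 237 higher and 218 to 512 lower. The counts moved by over 1.5 times without WKY 1-2 (132 and 239), WKY 1-3 (125 and 218), WKY 4-1 (144 and 272) or SHR 3-4 (144 higher).

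Of the other pathway genes 1 was higher and 0 lower. The higher count was 3 with quantile normalisation, with or without normexp, or with array weights, 4 with median scaling or the authors' values, 0 on slide 2 alone or with slides as fixed blocks, and 7 with slides as a random effect, where 8 were lower. Leaving out 1 array gave 0 to 2 higher and 0 to 1 lower. The cause of these changes was not tested. No paired analysis was possible because the numbers in the titles are not shared between the strains. Dim probes such as the second one of Dhh had signals near background.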

Other observations

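Among the other cell markers, Smgc, a secretory protein of the gland that was placed in the acinar list, fell by 4.10 on the log2 scale. Oprpn, a salivary proline-rich protein of the same list, rose by 0.61 (for both, limma adjusted p below 0.05). The other 5 of the 7 genes in that list did not pass. Which cells of these glands made Smgc was not tested. No gene passed among 5 granular duct markers (Klk1c12 at −1.86, with an SD of 2.29 in SHR and 0.15 in WKY, and Klk1 at 0.27). Their summed relative intensity was 233 in SHR 3-3, 435 to 610 in the other SHR arrays and 418 to 456 in WKY. None passed among 4 endothelial markers (Kdr at 0.05 and Pecam1 at 0.41) or 4 lymphocyte markers (Cd79b at −0.25). Nor did any among 3 adipocyte markers (Cidea at −0.44 and Fabp4 at −0.26) or 4 skeletal muscle markers (Tnnt3 at −0.07 and Ckm at 0.49). The part of these cells in the Hedgehog values was not tested.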
